A study of Mus musculus with 11 samples.

Results

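The cytosolic nucleic acid sensing machinery was followed as 10 genes chosen by name from textbook pathway membership: *Cgas*, *Tmem173*, *Tbk1*, *Irf3*, *Mavs*, *Ddx58*, *Ifih1*, *Trex1*, *Samhd1* and *Adar*. All 10 were found among the 35127 genes of the annotated libraries, and all 10 were among the 14114 genes that passed the filter on low counts. They were measured by bulk RNA sequencing of KP1, a mouse small cell lung cancer (SCLC) line with mutant *Rb* and *p53*. The control group held 2 untreated libraries, numbered replicates 2 and 3, and the irradiated group held 3 libraries of cells exposed to 5 Gy, numbered replicates 1, 2 and 3, with pellets collected at 24 h. Both groups were the same line in culture without any other agent, and the labels do not say whether replicates came from separate cultures, so p-values measure only the spread between these libraries, which may be technical.

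These genes belong to the innate system by which a cell detects DNA or RNA in its cytoplasm. The enzyme cGAS binds double-stranded DNA and makes the cyclic dinucleotide cGAMP, which activates STING (encoded by *Tmem173*), whereas the helicases RIG-I (*Ddx58*) and MDA5 (*Ifih1*) bind viral or self double-stranded RNA and signal through MAVS on mitochondria. Both arms converge on the kinase TBK1 and the transcription factor IRF3, which switch on interferon beta, and interferon in turn raises a large group of interferon-stimulated genes through JAK and STAT proteins. TREX1, SAMHD1 and ADAR hold the system in check by degrading DNA, lowering the supply of nucleotides, and editing double-stranded RNA. Irradiation is a known source of cytosolic DNA, through micronuclei and mitochondrial damage, which is why this pathway is often examined in irradiated tumor cells.

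The promoters of the genes show which of them carry the letters that interferon-activated factors are known to bind. The interferon response pattern GAAANNGAAA was sought on both strands in RefSeq promoter windows of GRCm38.p6, each with 250 bases before and 50 bases after a gene's start. It was present in 1126 of 32817 windows (3.43%), and in 1074 of the 26994 genes with a window (3.98%). Of the 9 sensing genes with a window, 2 held it, and both were the RNA helicase genes. No window was matched to *Tmem173*, so its promoter was not examined. The pattern was present in 15 of 29 interferon-stimulated genes of the list used below (51.7%). *Ifih1* and *Ddx58* had the lowest mean levels of the machinery when summed over protein-coding transcripts, although *Ifih1* overlapped *Trex1* in controls. The 2 matches are shown because these genes are the pair among the 9 whose start region carries the pattern. They are written along the gene with the matching letters in capitals (TTTCNNTTTC is the same pattern read on the other strand), and both lie just after the annotated start, on the minus strand, at chr2:62646206-62646233 for *Ifih1* and chr4:40239804-40239833 for *Ddx58*.
Ifih1: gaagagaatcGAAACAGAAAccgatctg
Ddx58: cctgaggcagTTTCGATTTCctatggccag
In *Ifih1* the pattern ran from base 33 to base 42 counted from the start, and in *Ddx58* from base 3 to base 12. A match is a description of letters and not evidence of a bound site.

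The libraries held 21185956 to 31036317 estimated reads. Reads were summed per gene and compared with the quasi-likelihood test of edgeR, with p-values adjusted by Benjamini-Hochberg for every gene tested, and a gene was called at an adjusted p under 0.05. By this rule 12.7% of genes were called higher and 13.0% lower in irradiated cells, and 41.0% had an unadjusted p under 0.05. DESeq2 called 16.4% higher and 14.9% lower. With the study's added threshold of a log2 fold change beyond 1.5 the shares were 1.64% and 1.90%. All irradiated libraries lay above both controls for 30.1% of genes and below both for 29.3%. Without control replicate 2 only 90 genes were called higher and 164 lower, whereas without control replicate 3 these counts were 2237 and 1980. The libraries also differed in the transcripts they sampled. The average transcript behind a read was 5463 bases long in control replicate 2 and 4729 bases long in control replicate 3, but 3625 to 3998 bases long in the irradiated libraries.

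Neuroendocrine markers were abundant in every library. The 9 neuroendocrine markers summed to between 2657.1 and 2854.0 TPM (a transcript level scaled for length and for the depth of its library), and of them *Syp*, *Uchl1* and *Calca* were called higher and *Ncam1* lower. The 8 leukocyte and macrophage markers, cells that carry much of this pathway, summed to 4.6 and 7.5 TPM in controls and 4.3, 2.4 and 2.8 TPM in irradiated libraries. Among them *Adgre1*, *Csf1r*, *Lyz2* and *Cd3e* had at most 2 reads in any library. *Ptprc* had 24 and 9 reads in controls and 1, 8 and 5 in irradiated libraries, and *Itgam* 0 and 7 against 0, 0 and 1. The 2 tested were *Cd68*, with 9 to 51 reads, and *Cd79a*, with 0 and 8 reads in controls and 52, 21 and 26 in irradiated libraries (log2 fold change 3.13, adjusted p = 0.0728, edgeR), and neither was called. *Cd79a* moved with the groups, and its part in the results below was not tested. The fibroblast list summed to 37.0 to 67.5 TPM, and *Pdgfra* alone had 36.6 to 56.7 TPM while *Col3a1* had no read. *Col1a1* had 33 reads and 13.5 TPM in control replicate 2, against 2 reads in control replicate 3 and 6, 9 and 10 in irradiated libraries. The endothelial list summed to 7.8 to 12.3 TPM, of which *Tek* had 7.24 to 11.0 TPM, and *Cdh5* and *Cldn5* had at most 2 reads. *Pecam1* had 43 and 26 reads in controls and 10, 16 and 11 in irradiated libraries, and *Kdr* 15 and 15 against 5, 6 and 11.

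Across the machinery, *Tmem173* was the 1 gene of 10 called higher after irradiation, against 12.7% of all genes, and none was called lower by edgeR, against 13.0%. At an unadjusted p under 0.05 *Samhd1* and *Adar* were also counted, both lower, which made 3 of 10 genes against 41.0% of all genes, and DESeq2 likewise called *Tmem173* higher and none lower. None of the 10 passed the study's fold threshold. The log2 fold change was above 0 for 5 genes and below 0 for 5, with a median of 0.0 beside 0.02 for all genes tested. Irradiated libraries lay wholly above both controls for *Tmem173* and wholly below them for *Samhd1* and *Adar*, so 1 and 2 of 10 did not overlap, against 30.1% and 29.3% of all genes.

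**Figure D1:**
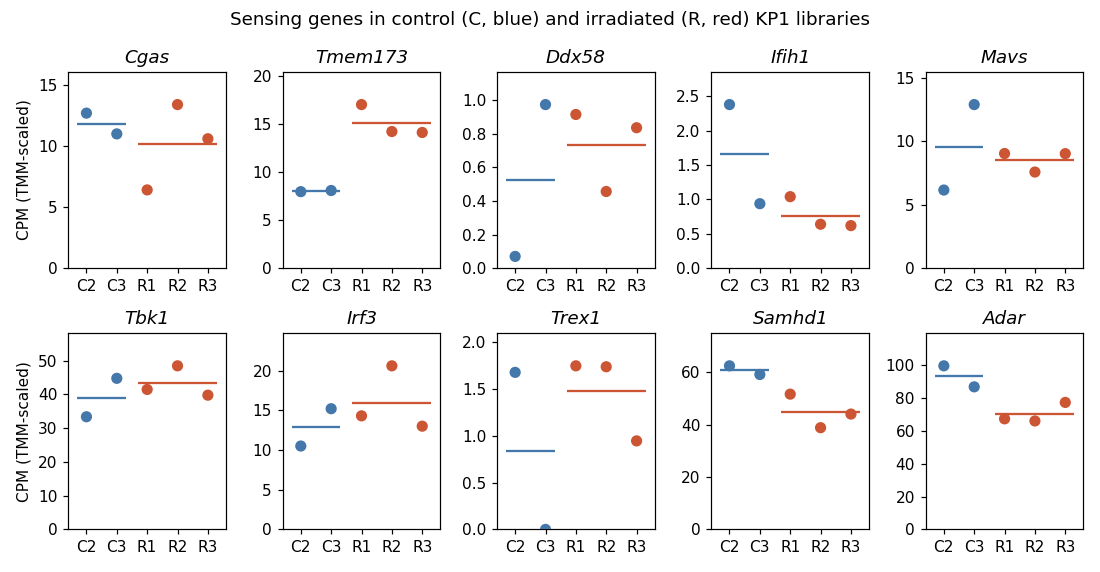
Read counts scaled to the same library size (CPM, vertical axis, linear from 0, library sizes adjusted by TMM) of each of the 10 sensing genes in control replicates 2 and 3 (C2 and C3, blue) and irradiated replicates 1 to 3 (R1 to R3, red), with each group's mean as a line. *Tmem173* was at 7.95 and 8.07 CPM in controls and at 14.1 to 17.0 CPM in irradiated libraries, *Samhd1* and *Adar* were lower in all irradiated libraries on this scale (the transcript length offset turned *Adar* to 0.10), and the groups of the other 7 genes overlapped.

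In the DNA arm, *Tmem173* was called higher and *Cgas* was not called, and the difference between them was not tested. *Tmem173* (ENSMUSG00000024349, chromosome 18 from 35733679 to 35740554, minus strand, GRCm38) encodes STING, the endoplasmic reticulum protein that relays cGAMP. It had 227 and 215 reads in control replicates 2 and 3 and 428, 312 and 386 reads in irradiated replicates 1, 2 and 3. On the CPM scale these were 7.95 and 8.07 in controls and 17.0, 14.2 and 14.1 in irradiated libraries. The controls were nearly equal and every irradiated library stood well above them. Mean levels were 8.01 ± 0.0845 CPM (SD, n = 2) and 15.1 ± 1.67 CPM (SD, n = 3), a log2 fold change of 0.92 with an SE of 0.21 and a 95% interval of 0.43 to 1.41 (adjusted p = 0.0199, edgeR's quasi-likelihood test). In bulk RNA a change in RNA per cell and a change in the share of cells that carry it cannot be told apart.

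The call of *Tmem173* depended on the processing, although its direction did not. An offset that takes out the dependence on transcript length within each library left a log2 fold change of 0.72 (adjusted p = 0.0747, edgeR), and the gene's single quantified transcript is 2302 bases long. It was also not called by edgeR without control replicate 2 (0.93, adjusted p = 0.0894), without irradiated replicate 1 (0.82, adjusted p = 0.054) or without irradiated replicate 2 (0.96, adjusted p = 0.0564). The files quantify 1 of its 10 annotated transcripts, a coding one of 378 codons, so no other form of it could be followed.

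*Cgas* (ENSMUSG00000032344, chromosome 9 from 78430526 to 78443237, minus strand) encodes the DNA sensor itself. It had 362 and 292 reads in the controls and 161, 294 and 291 in irradiated replicates 1, 2 and 3. Irradiated replicate 1 was the lowest library at 6.41 CPM, and irradiated replicate 2 was the highest at 13.4 CPM, with the controls at 12.7 and 11.0 CPM. Its log2 fold change was −0.22 with a 95% interval of −0.94 to 0.50 (adjusted p = 0.632, edgeR), and without irradiated replicate 1 it was 0.02. The transcript for the full protein of 507 codons, Cgas-202, held 6.127 and 3.824 TPM in controls and 2.27, 4.265 and 3.337 TPM in irradiated libraries, whereas a form of 394 codons, Cgas-201, held 0 to 1.32 TPM.

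In the RNA arm the helicases were scarce and their adaptor was present at a moderate level. *Ddx58* (ENSMUSG00000040296, chromosome 4 from 40203773 to 40239828, minus strand) encodes RIG-I, which recognizes RNA ends bearing a triphosphate. It had 2 and 26 reads in controls and 23, 10 and 23 reads in irradiated libraries. The controls spanned the irradiated libraries, and the 95% interval of the log2 fold change, −1.70 to 2.71 around 0.50, left a wide range undetermined (adjusted p = 0.730, edgeR). The direction turned without control replicate 2 (−0.38) and with offsets from effective length (−1.42). The share of these reads in coding transcripts was 0% and 26.7% in controls and 0%, 66.6% and 90.8% in irradiated libraries, and the coding transcripts summed to 0 and 0.235 TPM in controls and 0, 0.123 and 0.338 TPM in irradiated libraries. A non-coding fragment of 435 bases, Ddx58-208, took 16.2 reads in control replicate 3, and these alone gave 7.474 of the gene's 9.66 TPM there.

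*Ifih1* (ENSMUSG00000026896, chromosome 2 from 62595798 to 62646255, minus strand) encodes MDA5, which binds long double-stranded RNA. It had 68 and 25 reads in controls and 26, 14 and 17 reads in irradiated libraries. Control replicate 2 was the highest and control replicate 3, at 0.938 CPM, lay within the irradiated range of 0.619 to 1.04 CPM. Its log2 fold change of −1.11 had a 95% interval of −2.54 to 0.31 (adjusted p = 0.213, edgeR). Without control replicate 2 it was −0.27, and restricted to protein-coding transcripts, a choice made after the data were seen, it was −0.58.

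*Mavs* (ENSMUSG00000037523, chromosome 2 from 131234063 to 131248025, plus strand) encodes the mitochondrial adaptor of both helicases. It had 176 and 343 reads in controls and 227, 166 and 248 reads in irradiated libraries. The controls, at 6.16 and 12.9 CPM, were the extremes and enclosed all irradiated libraries. *Mavs* changed by −0.15 on the log2 scale with a 95% interval of −0.90 to 0.59 (adjusted p = 0.760, edgeR), and without control replicate 3 it turned to 0.49. Between 90.6% and 100% of its TPM was in coding transcripts, both with the same reading frame of 503 codons.

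Both arms share a kinase and a transcription factor. *Tbk1* (ENSMUSG00000020115, chromosome 10 from 121546455 to 121586787, minus strand) encodes the kinase that phosphorylates STING, MAVS and IRF3. It had 954 and 1193 reads in controls and 1043, 1063 and 1093 reads in irradiated libraries. The groups overlapped, at 33.4 and 44.8 CPM against 41.5, 48.5 and 39.8 CPM. The estimated log2 change was 0.15 with a 95% interval of −0.27 to 0.57 (adjusted p = 0.580, edgeR).

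*Irf3* (ENSMUSG00000003184, chromosome 7 from 44997648 to 45002848, plus strand) encodes the factor that TBK1 activates. It had 299 and 404 reads in controls and 359, 452 and 356 reads in irradiated libraries. Irradiated replicate 2 was the highest at 20.6 CPM and control replicate 2 the lowest at 10.5 CPM, with the other 3 libraries between 13.0 and 15.2 CPM. Its log2 fold change was 0.32 with a 95% interval of −0.31 to 0.94 (adjusted p = 0.416, edgeR), and the transcript length offset turned it to −0.14.

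The genes that restrain sensing ranged widely in level. *Samhd1* (ENSMUSG00000027639, chromosome 2 from 157097533 to 157135265, minus strand) encodes a nuclease and dNTP hydrolase. It had 1782 and 1576 reads in controls and 1296, 849 and 1208 reads in irradiated libraries. At 62.4 and 59.1 CPM both controls lay above the irradiated libraries, at 51.6, 38.8 and 44.0 CPM. The log2 fold change was −0.44 with an SE of 0.16 (adjusted p = 0.0788, edgeR), which did not pass the test. Its main transcript Samhd1-201, of 658 codons, had 21.968 and 24.837 TPM in controls and 16.228, 11.455 and 15.207 TPM in irradiated libraries. The shorter form Samhd1-206, of 630 codons, had 6.077 and 6.254 TPM against 4.942, 5.899 and 7.312 TPM, so the groups overlapped for that form. Samhd1-202, of 651 codons, had 9.763 TPM in control replicate 2, 5.188 TPM in irradiated replicate 1 and none in the other libraries. The division of reads among these forms was therefore uncertain.

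*Adar* (ENSMUSG00000027951, chromosome 3 from 89715022 to 89753446, plus strand) encodes the adenosine deaminase that keeps cellular double-stranded RNA from MDA5. It had 2847 and 2316 reads in controls and 1692, 1447 and 2127 reads in irradiated libraries. Both controls, at 99.7 and 86.9 CPM, exceeded the irradiated libraries, at 67.4, 66.1 and 77.4 CPM. The log2 fold change was −0.41 with an SE of 0.15 (adjusted p = 0.0771, edgeR) and did not pass the test. Its sign and its call depended on how transcript length and base composition were treated. The transcript length offset gave 0.10 (adjusted p = 0.641), the effective length offset −0.72 (adjusted p = 0.0325) and the GC offset −0.55 (adjusted p = 0.0441), all by edgeR, and its most read transcript is 5909 bases long.

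*Adar* is known to make a short constitutive protein and a long protein from a separate, interferon-responsive start, and the annotation separates their transcripts by reading frame. Adar-202, with 930 codons and the upstream start at base 89715022, had 21.7 and 24.8 TPM in controls and 15.8, 15.1 and 17.6 TPM in irradiated libraries, and all irradiated libraries lay below both controls. Adar-201, with 1152 codons and a start at base 89730748, had 14.8 and 4.11 TPM in controls and 2.38, 2.62 and 6.76 TPM in irradiated libraries. Control replicate 2 stood apart for the long form, and control replicate 3 lay within the irradiated range. The other long transcript, Adar-203, had no reads. Adar-205 (634 codons) and Adar-204 (660 codons) also begin at base 89730748. Adar-205 had 3.335 TPM in control replicate 3 only, and Adar-204 had 1.95 TPM in irradiated replicate 1 only. The overlap is thus that of Adar-201 alone, and the division of reads among the forms from that start was uncertain.

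*Trex1* (ENSMUSG00000049734, chromosome 9 from 109057933 to 109059734, minus strand) encodes the main cytosolic DNA exonuclease, and *Trex1* and the neighboring *Atrip* gene share sequence in the annotation. It had 48 and 0 reads in controls and 44, 38 and 26 reads in irradiated libraries. Control replicate 3 was thus under the detection floor of 3 reads while control replicate 2, at 1.68 CPM, lay within the irradiated range of 0.947 to 1.75 CPM. The log2 fold change of 0.80 had a 95% interval of −1.88 to 3.48 (adjusted p = 0.644, edgeR). Without control replicate 3 it was −0.17. Without control replicate 2 the comparison rested on the control with no read, and *Trex1* was then called (adjusted p = 0.0488, edgeR). The 3 *Atrip* transcripts that reach into *Trex1* had 279 and 303 reads in controls and 133, 297 and 256 in irradiated libraries, so the division of reads between the 2 genes was uncertain.

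**Figure D2:**
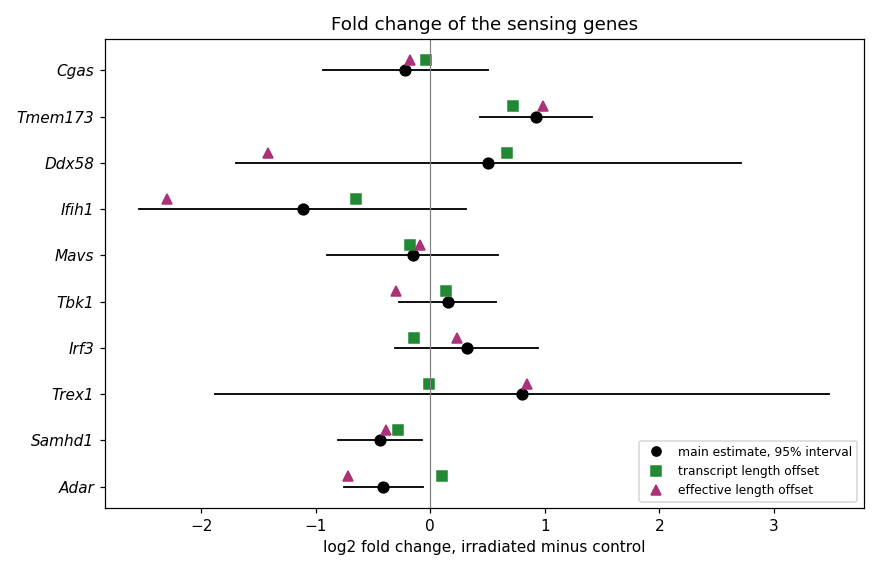
Log2 fold change of irradiated minus control libraries (horizontal axis) for the 10 sensing genes: black points are edgeR's estimates with 95% intervals, green squares the estimates with a transcript length offset and purple triangles those with an effective length offset. The intervals of *Tmem173*, *Samhd1* and *Adar* lay on 1 side of 0, and the 2 length offsets put *Adar* at 0.10 and −0.72.

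Levels were compared between genes on the TPM scale summed over protein-coding transcripts, which corrects for length and leaves out transcripts not annotated as protein coding. Short fragments annotated as coding stayed in, such as Tbk1-206 of 442 bases, with 3.261 TPM in irradiated replicate 1. In control cells *Samhd1* (35.4 ± 4.17 TPM, SD, n = 2) and *Adar* (34.4 ± 3.04) led and overlapped each other, followed by *Tbk1* (23.1 ± 5.73) and *Irf3* (12.2 ± 3.34), each separate from its neighbors. *Tmem173* (7.33 ± 0.24), *Mavs* (6.66 ± 3.50) and *Cgas* (5.29 ± 1.18) followed with ranges that overlapped from each gene to the next. *Trex1* (1.96 ± 2.78), *Ifih1* (0.347 ± 0.300) and *Ddx58* (0.118 ± 0.166) came last and overlapped in the same way.

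In irradiated cells the leading group was *Tbk1* (24.5 ± 2.66 TPM, SD, n = 3), *Samhd1* (22.4 ± 4.52) and *Adar* (20.7 ± 3.39), whose ranges overlapped. *Tmem173* (11.3 ± 1.32) came next, above *Irf3* (8.71 ± 1.44) without overlap, whereas in controls *Irf3* lay above *Tmem173* without overlap. This change of order was limited to coding transcripts. Summed over all transcripts, *Irf3* had 17.9, 30.8 and 19.3 TPM in irradiated libraries, above *Tmem173* at 12.8, 10.2 and 11.1 TPM. *Mavs* (4.76 ± 0.488), *Cgas* (4.10 ± 1.25) and *Trex1* (2.79 ± 0.827) followed, each overlapping the next. *Ifih1* (0.241 ± 0.0595) and *Ddx58* (0.154 ± 0.171) stayed at the bottom and overlapped.

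The share of a gene's TPM that came from protein-coding transcripts differed between libraries. For *Tbk1* it was 51.2% and 49.2% in controls and 97.9%, 84.3% and 70.3% in irradiated libraries. For *Adar* it was 67.1% and 80.4% against 90.2%, 90.0% and 94.9%, and for *Ifih1* 17.8% and 25.1% against 100%, 100% and 56.3%. On the TPM scale the groups did not overlap for these 3 of the 8 genes compared. How often this share separated the groups over all genes was not computed. Counted as reads, the share of *Ifih1* overlapped, at 66.9% and 39.9% against 100%, 100% and 62.1%, and that of *Adar* differed by 2.2 percentage points in place of 17.9. *Irf3* ran from 30.9% to 51.2% with overlapping groups, and a retained-intron transcript, Irf3-207, held 7.226 and 9.571 TPM in irradiated replicates 1 and 2. By exact two-sided permutation tests, for which 0.1 is the smallest p that 2 against 3 libraries allow, *Adar* reached p = 0.1 and *Tbk1* and *Ifih1* p = 0.2, and over the 8 genes compared no Benjamini-Hochberg adjusted value was below 0.533.

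The largest part of the other *Tbk1* transcripts by TPM in the controls was a short fragment. The retained-intron fragment Tbk1-207, 747 bases long, held 9.678 and 15.435 TPM in controls and 0, 2.283 and 6.903 TPM in irradiated libraries, from 70.6, 101.5, 0, 15.7 and 55.2 reads. *Tbk1* had 37.2 and 55.1 TPM in controls and 26.6, 30.9 and 30.4 TPM in irradiated libraries when all transcripts were summed, but 19.0 and 27.1 against 26.0, 26.0 and 21.4 TPM over coding transcripts alone. The first pair of groups did not overlap and the second did. Counted as reads rather than TPM, the coding share of *Tbk1* was 85.9% and 88.5% in controls and 99.9%, 97.4% and 92.6% in irradiated libraries.

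**Figure D3:**
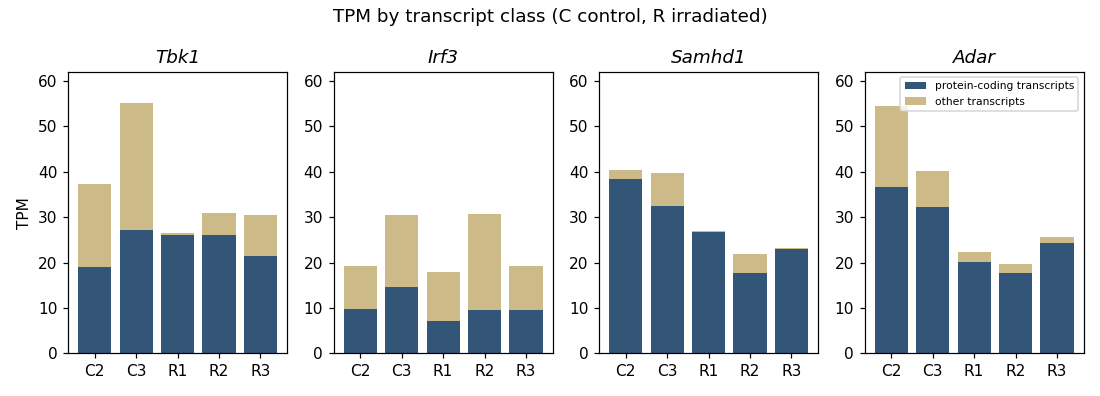
TPM (vertical axis, from 0) of *Tbk1*, *Irf3*, *Samhd1* and *Adar* in each library (C2 and C3 control, R1 to R3 irradiated), stacked by transcript class, with protein-coding transcripts in dark blue and all others in tan. Other transcripts made up nearly 50% of *Tbk1* in controls, where the coding share was 51.2% and 49.2%, while in irradiated libraries that share was 70.3% to 97.9%.

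Around these 10 genes, 140 further genes were grouped by role into 7 lists, of which 103 were tested. Of these, 6 were called higher (5.83%) and 7 lower (6.80%), against 12.7% and 13.0% of all genes, and none passed the study's fold threshold. The called genes differed in length by direction. The main transcripts of those called higher were 735 to 2112 bases long and those of the genes called lower 4301 to 7060 bases, and irradiated libraries held shorter transcripts on average. With the transcript length offset 12 of the 13 kept their direction, *Ttc37* turning from −0.63 to 0.01, and 1 of the 13, *Rnaset2a*, remained called. The same offset gave −0.09 for *Lrrc8c*, −0.14 for *Traf3*, 0.33 for *Rnaseh2c*, 0.46 for *Prkra*, 0.64 for *Banf1* and 0.58 for *Tradd*. With 1 library left out all 13 kept their direction, which was largely fixed in advance because none of them overlapped between groups. All 13 were still called without control replicate 3 or irradiated replicate 3, but 2 (*Rnaset2a* and *Dhx9*) without control replicate 2, 6 without irradiated replicate 1 and 5 without irradiated replicate 2.

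**Figure D4:**
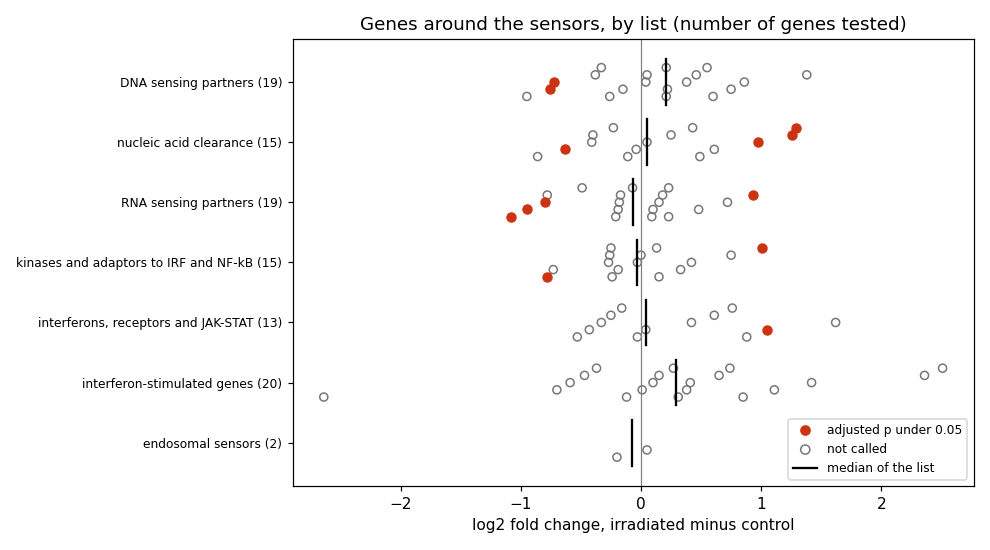
Log2 fold change of irradiated minus control libraries (horizontal axis) for the tested genes of the 7 lists, with red points called at an adjusted p under 0.05 by edgeR, open points not called and a bar at each list's median. Medians ran from −0.08 to 0.29, and the 13 called genes fell on both sides of 0.

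Among the DNA sensing partners, 19 of 22 were tested, with a median log2 fold change of 0.21 beside 0.02 for all genes. By edgeR 0 were called higher and 2 lower, against 12.7% and 13.0% of all genes. At an unadjusted p under 0.05 9 of the 19 were counted, against 41.0% of all genes, and DESeq2 called 4 higher (*Zcchc3*, *Pqbp1*, *Surf4* and *Rnf5*, named after their values were seen) and the same 2 lower, against 16.4% and 14.9% of all genes. The pair that fell encode subunits of the volume-regulated anion channel, known to carry cGAMP across the plasma membrane. *Lrrc8a* had 2395 and 1811 reads in controls and 1182, 804 and 1387 in irradiated libraries (log2 fold change −0.76, adjusted p = 0.0215, edgeR). *Lrrc8c* had 2015 and 1756 against 990, 822 and 1306 reads (−0.72, adjusted p = 0.0161, edgeR). Every irradiated library was below both controls for each gene, as naming a called gene required and as for 29.3% of all genes. *Enpp1*, the enzyme that hydrolyzes extracellular cGAMP, had 440 and 405 reads in controls and 980, 304 and 452 in irradiated libraries (0.60, adjusted p = 0.308, edgeR), with irradiated replicate 1 far above the rest. *Aim2*, an inflammasome DNA sensor, had 10 and 3 against 32, 10 and 3 reads (1.38, adjusted p = 0.374, edgeR).

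Among the 16 genes of nucleic acid clearance, 15 were tested, and the median was 0.05. Of these, 3 were called higher and 1 lower, against 12.7% and 13.0% of all genes. *Banf1*, whose protein coats cytosolic and nuclear DNA and competes with cGAS, had 931 and 2017 reads in controls and 3244, 3521 and 2719 in irradiated libraries (log2 fold change 1.26, adjusted p = 0.0338, edgeR). The controls differed from each other by more than 2 times but both lay below all irradiated libraries, as naming a called gene required. Its log2 fold change was 0.80 without control replicate 2 (adjusted p = 0.116, edgeR) and 2.01 without control replicate 3, and it was also not called without irradiated replicate 1 (1.26, adjusted p = 0.0809) or irradiated replicate 2 (1.08, adjusted p = 0.0755). *Rnaset2a*, a lysosomal RNase, had 570 and 443 against 1026, 1115 and 1158 reads (1.29, adjusted p = 0.00871, edgeR). It has a close copy, *Rnaset2b*, not called at 0.49 (adjusted p = 0.177), and the division of reads between the copies was uncertain.

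The subunits of RNase H2, which removes ribonucleotides from DNA, were all above 0. *Rnaseh2c* had 382 and 537 reads in controls and 632, 1000 and 753 in irradiated libraries (log2 fold change 0.97, adjusted p = 0.0487, edgeR). It was not called by edgeR without irradiated replicate 1 (1.12, adjusted p = 0.0571) or irradiated replicate 2 (0.65, adjusted p = 0.127). Without control replicate 2 its log2 fold change was 0.72. *Rnaseh2a* (0.61, adjusted p = 0.0568) and *Rnaseh2b* (0.43, adjusted p = 0.0648) did not pass edgeR's test. All irradiated libraries lay above both controls for each in CPM, as they did for 30.1% of all genes. In TPM the groups overlapped for *Rnaseh2a* and *Rnaseh2c* but not for *Rnaseh2b*. *Ttc37*, a component of the SKI complex that feeds RNA to the exosome, was called lower, with 1790 and 1661 reads in controls and 1064, 798 and 1172 in irradiated libraries (−0.63, adjusted p = 0.0199, edgeR).

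Among the 20 RNA sensing partners, 19 were tested, with a median of −0.07. Of these, 1 was called higher and 3 lower, against 12.7% and 13.0% of all genes. *Eif2ak2*, encoding the double-stranded RNA-activated kinase PKR, had 1672 and 1149 reads in controls and 481, 631 and 846 in irradiated libraries (log2 fold change −0.95, adjusted p = 0.0233, edgeR). *Zc3hav1*, the zinc-finger antiviral protein, had 4394 and 2496 against 1595, 1048 and 1780 reads (−1.08, adjusted p = 0.0152). *Dhx9*, a nuclear RNA helicase, had 17737 and 19299 against 9225, 8575 and 11062 reads (−0.80, adjusted p = 0.0117). In all 3 the irradiated libraries lay below both controls, as naming a called gene required and as for 29.3% of all genes. *Prkra*, which encodes a protein activator of PKR, was called higher at 312 and 315 against 583, 509 and 512 reads (0.93, adjusted p = 0.0154, edgeR). *Dhx58*, the third helicase of the RIG-I family, had 0 and 22 reads in controls and 5, 9 and 19 in irradiated libraries (0.09, adjusted p = 0.964, edgeR), as scarce as *Ddx58* and *Ifih1*.

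Among the 17 kinases and adaptors that lead to IRF and NF-kB factors, 15 were tested, and the median was −0.03. Of these, 1 was called higher and 1 lower, against 12.7% and 13.0% of all genes. *Traf3*, an adaptor between MAVS and TBK1, fell from 2080 and 1729 reads in controls to 1033, 783 and 1187 in irradiated libraries (log2 fold change −0.78, adjusted p = 0.012, edgeR). *Tradd*, a death-domain adaptor that also joins the MAVS complex, had 210 and 291 against 457, 483 and 410 reads (1.01, adjusted p = 0.0285, edgeR). *Ikbke*, the inducible relative of TBK1, had 1 and 20 reads in controls and 2, 9 and 6 in irradiated libraries, and *Irf7*, which amplifies interferon production, had 16 and 0 against 6, 8 and 2 reads and was not tested.

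No read of the type I and type III interferon genes examined was seen in either group. *Ifnb1*, the first interferon that IRF3 switches on, had no read in any of the 5 libraries, as did *Ifna2*, *Ifna4*, *Ifne*, *Ifnl2* and *Ifnl3*. A count of 0 allows up to 3 reads, or 0.105 to 0.137 CPM depending on the library, and this limit covers counting error only. *Ifnar1*, a chain of the type I interferon receptor, had 1803 and 1479 reads in controls and 1535, 1293 and 1739 in irradiated libraries (log2 fold change 0.04, adjusted p = 0.845, edgeR). *Irf9*, the DNA-binding part of the interferon-activated complex, had 103 and 340 against 119, 184 and 140 reads (−0.43, adjusted p = 0.555, edgeR).

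Of these 20 genes of interferons, receptors and JAK-STAT signaling, 13 were tested, with a median of 0.04. By edgeR 1 was called higher and 0 lower, against 12.7% and 13.0% of all genes. At an unadjusted p under 0.05 4 of the 13 were counted, against 41.0% of all genes. DESeq2 called 3 higher and 0 lower, against 16.4% and 14.9% of all genes. The gene called by edgeR was *Ifngr1*, a chain of the interferon gamma receptor, with 211 and 305 reads in controls and 527, 480 and 433 in irradiated libraries (log2 fold change 1.05, adjusted p = 0.0249, edgeR). All irradiated libraries exceeded both controls, as naming a called gene required and as for 30.1% of all genes. It was not called by edgeR without control replicate 2 (0.79, adjusted p = 0.128), irradiated replicate 1 (1.00, adjusted p = 0.0665) or irradiated replicate 2 (0.96, adjusted p = 0.0737).

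Of 38 interferon-stimulated genes, 20 had enough reads to be tested. Of these, edgeR called 0 higher and 0 lower, against 12.7% and 13.0% of all genes. At an unadjusted p under 0.05 4 of the 20 were counted, against 41.0% of all genes, and DESeq2 called *Ifi27* higher (0.74, adjusted p = 0.028) and *Dtx3l* lower (−0.70, adjusted p = 0.0392). The median log2 fold change was 0.29 beside 0.02 for all genes. *Isg15*, a ubiquitin-like protein that is among the most strongly induced by interferon, had 12 and 8 reads in controls and 2, 0 and 3 in irradiated libraries. *Ifit1* had 0 and 4 against 2, 1 and 2 reads, and *Ccl5*, a chemokine, had 1 read in irradiated replicate 1 and none elsewhere. *Cxcl10*, another chemokine, had 8 and 4 against 11, 3 and 12 reads (0.65, adjusted p = 0.620, edgeR), and *Ifit3* 0 and 4 against 16, 9 and 4 reads (2.36, adjusted p = 0.197, edgeR). These genes had at most 16 reads in any library, against a floor of 3 reads, so small changes in them could not be resolved. Across the list, 6 genes were under the floor in every library, of which 4 had no read at all, while *Ifit2* was well expressed, with 1035 and 1002 reads in controls and 1016, 572 and 978 in irradiated libraries (−0.12, adjusted p = 0.706, edgeR; chosen after its values were seen).

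The endosomal sensors, which detect nucleic acids taken up from outside, were scarce. Of 7 genes 2 were tested, the adaptors *Myd88* (96 and 79 reads in controls, 94, 74 and 75 in irradiated libraries) and *Ticam1* (433 and 272 against 181, 266 and 376), with a median log2 fold change of −0.08. None was called by edgeR or by DESeq2, and none had an unadjusted p under 0.05. *Tlr8* and *Tlr9* had no reads in any library. *Tlr3* had 5 and 6 reads in controls and 14, 7 and 3 in irradiated libraries, and *Tlr7* 0 and 13 against 4, 1 and 5.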

How the data were processed

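The 5 bulk libraries of KP1 cells were grouped by GEO's treatment labels, with replicate numbers from the titles. The single-cell samples were not analysed here. The authors quantified reads against mm10 with Salmon (version 0.8.2 in the submitters' processing notes, which also name DESeq2 1.22.2) and deposited, per transcript, estimated counts (expected counts, not scaled) and TPM scaled within each library. The annotation release is not given in the sources used here. Of 113116 transcripts, 112841 (99.76%) matched GENCODE M21, and their estimated counts were added up over 35127 genes, then rounded. Depth was 21185956 to 31036317 reads per library.

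Groups were compared with edgeR 4.0.16 in R 4.3.3 (filterByExpr, TMM, quasi-likelihood test, Benjamini-Hochberg adjustment, no block). The study's methods used DESeq2 with independent hypothesis weighting and a log2 fold change beyond 1.5, and DESeq2 1.42.0 was an alternative here, beside other normalizations, filters, offsets for effective length, transcript length and GC content (splines with 5 degrees of freedom), a replicate block, protein-coding genes and transcripts, and each library left out. The fits were tested on simulated data. Shares were compared with exact permutation tests in scipy 1.17.1, and plots used matplotlib 3.10.9. A spline offset removes any length trend, technical or biological.

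Named were the 10 genes, up to 6 called genes per list without overlap between groups and a fixed set of pathway genes, apart from those marked, and some genes within this rule are not reported here. Transcripts were named at 10% or more of a gene's TPM. The members and lists were chosen with earlier results of these data known.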

Additional observations from a re-analysis of the deposited data

How the results depend on the processing

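Counts over all genes and lists moved with transcript length, pairing and single libraries. From 1788 genes higher, 1828 lower and 500 past the study thresholds, the transcript length offset left 386, 286 and 116, the replicate block 601, 492 and 301, and the replicate block with that offset 4, 5 and 9, and leaving out 1 library gave 90 to 2237, 164 to 1980 and 54 to 1275. The replicate block rests only on the numbers 2 and 3, gives irradiated replicate 1 no weight, and the labels do not say that same-numbered libraries were handled together. Across genes the deviations of same-numbered libraries correlated at −0.196. Under the replicate block *Tmem173* had a log2 fold change of 0.82 (adjusted p = 0.134, edgeR). A crossed replicate block, chosen after the data were seen, called 3027 genes higher (21.4%) and 2668 lower (18.9%), and 1 of the 10 sensing genes higher and 2 lower.

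Of the sensing genes, 1 was called higher in the main comparison and 0 with the transcript length offset, the replicate block or both together, and 0 to 1 with 1 library left out. The number lower was 0, and 1 with the effective length offset or the GC offset. *Tmem173* kept its direction in all 20 alternatives (0.56 to 0.98) and was called in 12 of the 18 with a test. *Ifih1* (−2.30 to −0.27) and *Samhd1* (−0.74 to −0.28) also kept theirs in 20 alternatives. Signs turned for *Cgas* (0.02 under the replicate block, the crossed block and without irradiated replicate 1, and 0.19 with block and length offset), *Tbk1* (−0.30 with the effective length offset and −0.03 without control replicate 2), *Irf3* (−0.14 with the length offset and −0.09 with block and length offset), *Mavs* (0.49 without control replicate 3), *Ddx58* (−1.42 with the effective length offset and −0.38 without control replicate 2), *Trex1* (−0.01 with the length offset and −0.17 without control replicate 3) and *Adar* (0.10 with the length offset and 0.11 with block and length offset). Differences of log2(TPM + pseudocount) over all transcripts, at pseudocounts of 1 and 0.1, also turned for *Tbk1* (−0.61 and −0.63) and *Irf3* (−0.13 and −0.14), and for *Ddx58* at a pseudocount of 1 (−0.54). The difference in coding share turned without control replicate 3 for *Cgas* (−4.3 percentage points) and *Samhd1* (−2.1), and was 0 for *Mavs* without irradiated replicate 3. With 1 library left out, log2 fold changes ranged over −0.47 to 0.02 for *Cgas*, −0.03 to 0.39 for *Tbk1*, −0.57 to 0.49 for *Mavs*, −0.38 to 3.33 for *Ddx58* and −0.17 to 8.23 for *Trex1*, the last against a control with no read, and the differences in share within −4.3 to 25.7 for *Cgas*, −4.7 to 0 for *Mavs* and −2.1 to 11.3 for *Samhd1*. The cause was not tested for any of these.

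In the lists, called genes are given as higher and lower. The DNA sensing partners (0 and 2) had 4 higher with DESeq2, 1 with upper quartile normalization, 3 without a filter, 1 higher and 0 lower with the length offset, 0 lower with the replicate block alone or with that offset, 4 and 4 under the crossed block, and 0 to 3 and 0 to 2 with 1 library left out. Nucleic acid clearance (3 and 1) had 5 higher with upper quartile normalization, 1 and 0 with the length offset, 0 lower under the block, 0 and 0 under the block with that offset, 5 and 2 under the crossed block, and 1 to 4 and 0 to 1 with 1 library left out. The RNA sensing partners (1 and 3) had 5 lower with DESeq2, 2 higher without a filter, 0 lower with the length offset, 0 and 1 under the block, 0 and 0 under both, 2 and 5 under the crossed block, and 0 to 2 and 1 to 4 with 1 library left out. The kinases and adaptors (1 and 1) had 2 higher with upper quartile normalization, 0 higher with the effective length offset or with protein-coding transcripts only, 0 and 0 with the length offset, the block or both, 3 higher under the crossed block, and 0 to 2 and 0 to 1 with 1 library left out. Interferons, receptors and JAK-STAT genes (1 and 0) had 3 higher with DESeq2, 2 with upper quartile normalization, without a filter or with protein-coding transcripts only, 0 and 1 with the effective length offset, 0 higher with the length offset, the block or both, 3 and 1 under the crossed block, and 0 to 1 and 0 to 0 with 1 library left out. The interferon-stimulated genes (0 and 0) had 1 and 1 with DESeq2, 2 and 1 without a filter, 1 lower with the GC offset or with protein-coding genes only, 1 higher with protein-coding transcripts only, 2 and 1 under the crossed block, and 0 to 1 and 0 to 1 with 1 library left out. Leaving out a control leaves 1 control, which is assumed to vary like the irradiated libraries.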
